A study of Bos taurus with 23 samples.

Results

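Explants of bovine endometrium cultured with an IVF conceptus were compared with explants of the same uteri cultured with recombinant interferon tau. An IVF conceptus is here an embryo with its membranes at Day 15, grown after transfer of a blastocyst produced in vitro. The comparison holds 12 of the 23 RNA libraries of the series, 6 IVF and 6 IFNT, chosen by their labels. They form 6 pairs with the same number in the title, written U and called the uterus number here: 1, 2, 3, 4, 5 and 10. A seventh IVF library, of uterus 7, has no IFNT partner. It is left out of the pairs, and the uterus term of the model keeps it from adding to their difference.

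All explants were intercaruncular endometrium, the gland-bearing lining between the sites of placental attachment, punched from mid-luteal uteri and kept in RPMI medium for a treatment of 6 h. In the IFNT group (n = 6) the medium held 100 ng per mL of the recombinant ovine protein. IVF explants (n = 6 in pairs) received 1 conceptus each and no added interferon. Control explants (n = 6) received medium alone, and AI explants (n = 4, uteri 1 to 4) received a Day 15 conceptus from a blastocyst produced in vivo. The conceptuses of IVF 1, 3, 5 and 10 were male and those of IVF 2 and 4 were female. The conceptus of IVF 1 measured 14 mm, that of IVF 2 measured 8 mm, that of IVF 3 measured 21 mm and that of IVF 4 measured 19 mm. The longer ones were those of IVF 5, at 33 mm, and IVF 10, at 29 mm. Titles give IVF 1 and 2 a common further code, and IVF 3 and 4 another, and the labels do not explain it. All 4 AI titles carry 1 code. If a code marks a shared source, fewer than 6 IVF conceptuses are independent, and the AI explants share 1 source. An explant with a conceptus is bulk tissue, so fewer cells of a type and less RNA per cell cannot be told apart, and RNA left behind by the conceptus would be counted with that of the endometrium.

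The elongating trophoblast of ruminants secretes interferon tau, a type I interferon. It binds the receptor chains IFNAR1 and IFNAR2 on endometrial cells, and signalling from the receptor switches on interferon-stimulated genes. In the bovine uterus the same signal restrains the prostaglandin release that would end the life of the corpus luteum. A living conceptus also secretes other products, among them prostaglandins and cortisol, and it touches and covers the epithelium. The comparison sets a whole conceptus against a fixed dose of its best-known signal, as a recombinant ovine protein. How much interferon tau each conceptus released is not given in the labels. Effects of dose, of protein source and of other conceptus products therefore cannot be told apart. The gene identifiers of the deposited table could not be paired with symbols here. Genes are therefore described in groups defined by their values, and the marker genes of the tissue, of the trophoblast and of the interferon pathway could not be looked up.

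Total counts in the paired libraries lay between 24416081 and 31216891 for IFNT and between 23505348 and 35964175 for IVF, and 14317 to 14682 genes had 10 or more reads. Libraries of the same number were in general more alike than others. After group means were removed, the median correlation across genes was 0.57 for the same number (n = 30). For different numbers it was -0.13, with a highest value of 0.57 (n = 223). The 6 IVF libraries correlated with the IFNT library of their uterus at r = 0.20 to 0.75, with a median of 0.44. The lowest value was that of uterus 2, where IVF 2 was closer to IFNT 4, at 0.39. IFNT 2 and IVF 5 stood apart. Each was closest to the other, at r = 0.57, while IFNT 2 correlated with IVF 2 at 0.20 and IVF 5 with IFNT 5 at 0.31. Both also resembled other explants of their own uterus: IFNT 2 correlated with Control 2 at 0.45 and with AI 2 at 0.47, and IVF 5 with Control 5 at 0.47. For IFNT 2 this was not particular to its uterus, since it correlated with AI 4, of another uterus, at 0.45. IVF 10 and IFNT 10, at 0.33, were only slightly closer than IVF 5 and IFNT 5. A set of 81 genes was at least 8-fold higher in IFNT 2 than in IVF 2, and 35 genes were at least 8-fold higher in IVF 5 than in IFNT 5. They share 25 genes, which is 30.9% of the first set and 71.4% of the second. The median level of those 25 genes was 94.4 CPM in IFNT 2 and 74.5 CPM in IVF 5, where CPM is a count divided by the TMM-adjusted library size in megareads. The choice of the genes by itself sets these 2 levels high. In IVF 1, which took no part in the choice, the median was 80.1 CPM. The choice likewise sets the levels in IVF 2, at 2.36 CPM, and IFNT 5, at 6.66 CPM, low. In the remaining libraries the median was between 2.72 CPM in Control 3 and 29.0 CPM in Control 1. Of uterus 1, IFNT 1 was at 27.4 CPM and AI 1 at 3.24 CPM. IFNT 2 and IVF 5 stand on opposite sides of the contrast, and results are given with and without them. Whether they hold another tissue layer or cell type, or whether samples were mixed up, was not tested, because the genes could not be named. A mix-up would change what the pairs of uteri 2 and 5 compare.

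The first question is whether an IVF conceptus raises interferon-responsive genes as far as this dose of interferon tau does. In 5 of 6 uteri it raised them slightly less, and in uterus 2 it raised them more. Genes raised by IFNT over Control were called in the other uteri and then read in the uterus left out, so the explants that chose the genes are not those in which they are read. The mean log2 level over the Control explant was 2.20 with IFNT and 1.82 with IVF in uterus 1. It was 0.95 with IFNT and 1.45 with IVF in uterus 2, and 2.27 and 1.92 in uterus 3. Uterus 2 is the only pair in which the IVF explant stood above its IFNT explant, and it is the pair with the lowest IFNT value. The means were 1.75 with IFNT and 1.52 with IVF in uterus 4, 1.35 and 1.19 in uterus 5, and 1.69 and 1.47 in uterus 10. Each reading covers 473 to 713 genes.

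IVF minus IFNT averaged -0.14 ± 0.32 on this log2 scale (SD, n = 6), a difference smaller than its spread between uteri. Without uteri 2 and 5 it was -0.29 ± 0.083 (SD, n = 4). That omission was chosen after seeing the data and removes the only positive value, so the sign and the small spread of this mean, and of each mean of IFNT-raised genes given without these uteri, are no sign of stability. The median difference over all genes tested lay between -0.02 and 0.07 in the 6 pairs, so the shift of the interferon-responsive genes was larger than that of genes at large in each pair. Over Control, the readings with IFNT ranged more widely between uteri, at 1.70 ± 0.50 (SD, n = 6), against 1.56 ± 0.27 for IVF (SD, n = 6). Without uteri 2 and 5 they were 1.97 ± 0.30 and 1.68 ± 0.22 (SD, n = 4), so much of that contrast lay in these uteri. Each uterus is read with its own list of genes, so either spread includes differences between the lists.

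**Figure D1:**
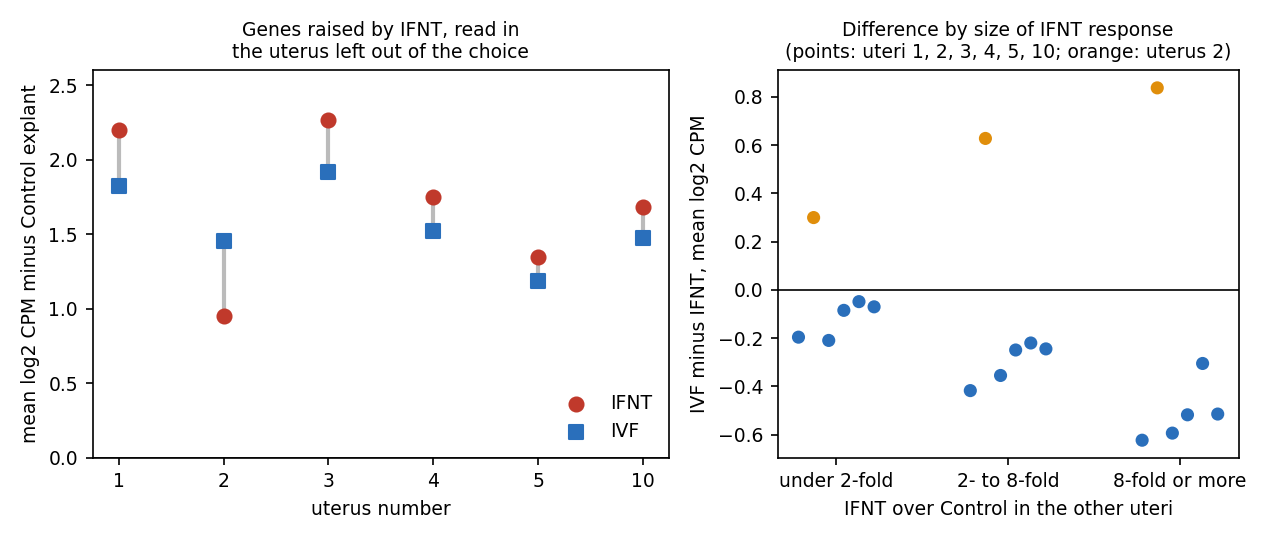
Left, mean log2 CPM of IFNT-raised genes over the Control explant of the same uterus, for IFNT (circles) and IVF (squares). Right, IVF minus IFNT for genes split by how far IFNT raised them in the other uteri, 1 point per uterus; 5 of 6 points lie below 0 in each class and uterus 2, in orange, lies above.

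The genes that responded most had the widest difference on the log2 scale, though not the largest share of their response. Genes raised 8-fold or more by IFNT in the other uteri, 85 to 97 genes per reading, stood 4.72 ± 0.64 above Control with IFNT and 4.43 ± 0.35 with IVF on the log2 scale (SD, n = 6). For uteri 1, 2, 3, 4, 5 and 10 in turn, their IVF minus IFNT difference was -0.62, 0.84, -0.59, -0.52, -0.30 and -0.51. Without uteri 2 and 5 the mean was -0.56 ± 0.055 (SD, n = 4). For genes raised 2- to 8-fold it was -0.32 ± 0.084 (SD, n = 4), and for genes raised less than 2-fold it was -0.14 ± 0.073 (SD, n = 4). With all 6 uteri the same 3 means were -0.29 ± 0.56, -0.14 ± 0.39 and -0.05 ± 0.18 (SD, n = 6), each smaller than its spread. The IFNT responses of these classes over Control were 4.72, 1.60 and 0.58 in turn (n = 6), so the widest mean difference was the smallest share of the response. In uterus 2 the order of the differences was turned around, with the highest excess of IVF in the class that responds most.

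Genes almost silent without interferon also had a wide difference on the log2 scale. Those under 1 CPM in Control, 50 to 67 genes per reading, differed by -0.63, 0.73, -0.81, -0.47, -0.18 and -0.40 in the same order of uteri. Their mean was -0.29 ± 0.54 (SD, n = 6), and -0.58 ± 0.18 (SD, n = 4) without uteri 2 and 5. Genes at 16 CPM or more in Control differed by -0.08 ± 0.28 (SD, n = 6), and by -0.20 ± 0.076 (SD, n = 4) without these uteri. The 5 uteri other than uterus 2 were negative in both classes.

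Genes lowered by IFNT were lowered about as far by a conceptus. Read in the uterus left out, they stood at -0.54 ± 0.14 against Control with IFNT and -0.50 ± 0.21 with IVF on the log2 scale (SD, n = 6, 69 to 124 genes per reading). IVF minus IFNT was -0.17, 0.17, 0.02, 0.23, -0.15 and 0.14 in uteri 1, 2, 3, 4, 5 and 10. The mean of 0.04 ± 0.17 (SD, n = 6) was smaller than the spread, and 4 of 6 uteri were positive.

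The second question is which single genes differ between an IVF conceptus and interferon tau. Across 15227 genes, edgeR's quasi-likelihood test with the uterus as a block called 3 genes at a Benjamini-Hochberg adjusted p under 0.05, which is 0.0197% of those tested. Of these, 2 were higher with IVF (0.0131%) and 1 was lower (0.00657%). Genes were also counted below this threshold, and how many of them sampling alone would give was not tested. At an unadjusted p under 0.05 there were 2107 genes (13.8%), of which 1265 were higher and 842 lower. Without the block 866 genes (5.69%) reached that level, and in the 12 paired libraries alone 1230 of 14554 did. In every one of the 6 pairs 454 genes (2.98%) were higher with IVF and 305 (2%) were lower, while all IVF libraries stood above all IFNT libraries for 19 genes (0.125%) and below them for 12 (0.0788%).

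ENSBTAG00000001607 rose with IVF relative to IFNT in 6 of 6 pairs. Its level was 164 CPM with IFNT and 227 CPM with IVF in uterus 1, 87.3 and 126 CPM in uterus 2, 115 and 173 CPM in uterus 3, 76.2 and 123 CPM in uterus 4, 119 and 168 CPM in uterus 5, and 82.2 and 179 CPM in uterus 10. Uterus sets much of its level, so the groups overlap although no pair does. The log2 fold change was 0.64 ± 0.09 (SE, edgeR adjusted p = 0.029), a 1.56-fold difference. Medium alone lay between the treatments, at 141 CPM ± 40.2 (SD, n = 6). IFNT lowered the gene against Control, by a fitted log2 difference of -0.39 ± 0.09 (SE, edgeR adjusted p = 0.0122), while IVF stood at 0.25 ± 0.09 and was not called (SE, edgeR adjusted p = 0.111). In AI explants it was at 158 CPM ± 34.1 (SD, n = 4). The unpaired IVF 7 library, at 112 CPM, lay below all 6 paired IVF libraries.

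ENSBTAG00000019133 also rose with IVF in 6 of 6 pairs. It was at 149 CPM with IFNT and 188 CPM with IVF in uterus 1, 101 and 157 CPM in uterus 2, 123 and 177 CPM in uterus 3, 85.1 and 141 CPM in uterus 4, 123 and 169 CPM in uterus 5, and 136 and 201 CPM in uterus 10. The highest IFNT library, of uterus 1, lay above the lowest IVF library, of uterus 4, and all others were separate. The log2 fold change was 0.54 ± 0.09 (SE, edgeR adjusted p = 0.0413). Here the change against medium lay on the conceptus side, at 0.38 ± 0.09 for IVF (SE, edgeR adjusted p = 0.00863) and -0.15 ± 0.09 for IFNT (SE, edgeR adjusted p = 0.408). IVF 7 held 159 CPM, AI explants held 163 CPM ± 11.2 (SD, n = 4) and Control explants 134 CPM ± 30.5 (SD, n = 6).

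ENSBTAG00000000210 fell with IVF relative to IFNT in 6 of 6 pairs. It was at 46.1 CPM with IFNT and 31.9 CPM with IVF in uterus 1, 36.3 and 27.2 CPM in uterus 2, 44.5 and 34.1 CPM in uterus 3, 33.0 and 23.4 CPM in uterus 4, 44.7 and 34.7 CPM in uterus 5, and 38.7 and 30.1 CPM in uterus 10. The log2 differences within pairs were all between -0.53 and -0.36, the narrowest range of the 3 called genes. The fitted log2 fold change was -0.43 ± 0.07 (SE, edgeR adjusted p = 0.0413). Against Control it fell by 0.30 ± 0.07 on the log2 scale with IVF (SE, edgeR adjusted p = 0.00981) and stood at 0.13 ± 0.07 with IFNT (SE, edgeR adjusted p = 0.375). The unpaired IVF 7 library, at 42.7 CPM, lay above all 6 paired IVF libraries.

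The lower gene with the next smallest p, ENSBTAG00000015808, missed the threshold with a fitted log2 difference of -0.40 ± 0.07 (SE, edgeR adjusted p = 0.0677). It was lower with IVF in 6 of 6 pairs, from 58.7 to 104 CPM with IFNT and from 50.4 to 76.2 CPM with IVF. Against Control it fell by 0.46 ± 0.07 on the log2 scale with IVF (SE, edgeR adjusted p = 0.000471) and stood at -0.06 ± 0.07 with IFNT (SE, edgeR adjusted p = 0.782). The 4 genes thus show 2 layouts. In ENSBTAG00000001607 the call against Control was that of IFNT, and in the other 3 it was that of IVF.

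**Figure D2:**
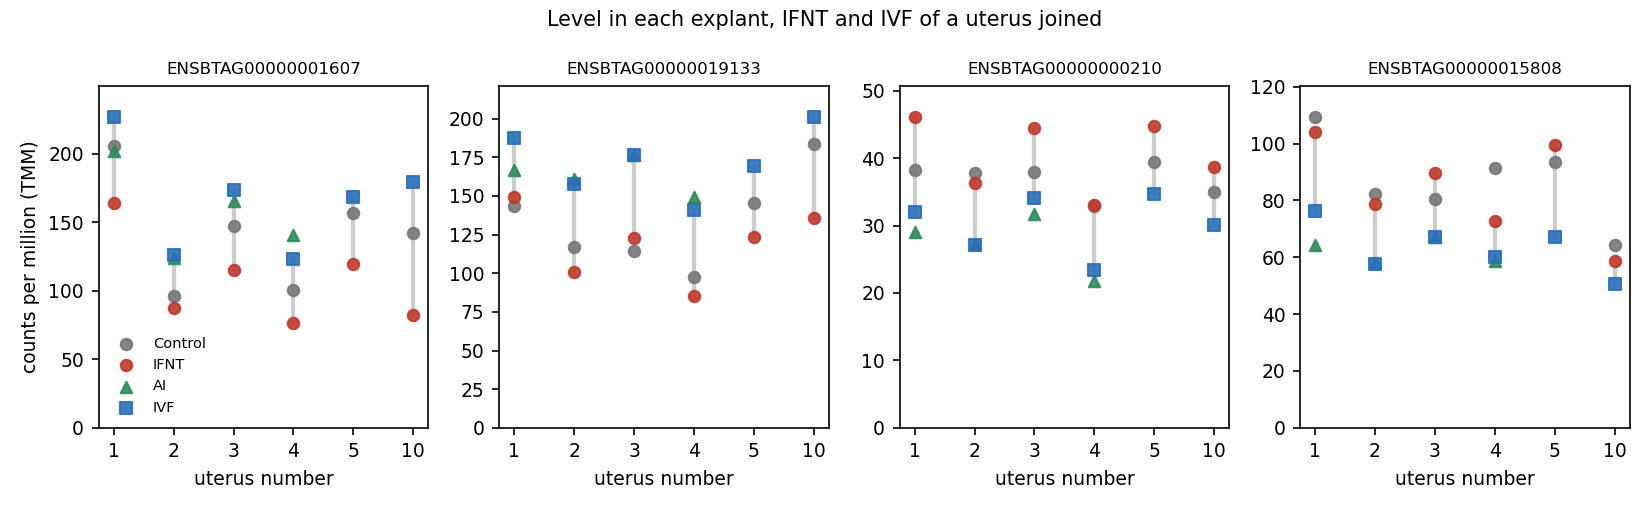
CPM of the 3 called genes and of the next lower gene in each explant of 6 uteri, with IFNT and IVF of a uterus joined by a line. IVF lies above IFNT in all 6 uteri for the first 2 genes and below it for the last 2.

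The number of called genes depended on single libraries. Leaving out IVF 5 gave 308 genes, 224 higher and 84 lower, and leaving out IVF 10 gave 116. Omitting IFNT 1, IFNT 2, uterus 5 or uterus 10 gave 18, 63, 66 or 3 genes. EdgeR called 0 genes when IVF 1, 2, 3 or 4, IFNT 3, 4, 5 or 10, or uterus 1, 2, 3 or 4 was omitted, with 1291 to 2488 genes at an unadjusted p under 0.05. Without both IVF 5 and IFNT 2 edgeR called 349 genes, 155 higher and 194 lower, and these include all 3 genes above. Leaving out 2 libraries of 12 thus gave more calls, with more lower than higher genes. Without all libraries of uteri 2 and 5 it was 110 genes, 55 in each direction. DESeq2 with the block called 366 genes, 242 higher (1.84%) and 124 lower (0.942%), or 2.78% of the 13160 genes to which it gave an adjusted p, and limma-voom with the block called the same 3 genes as edgeR. Without the block edgeR called 0 genes, with 866 at an unadjusted p under 0.05.

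**Figure D3:**
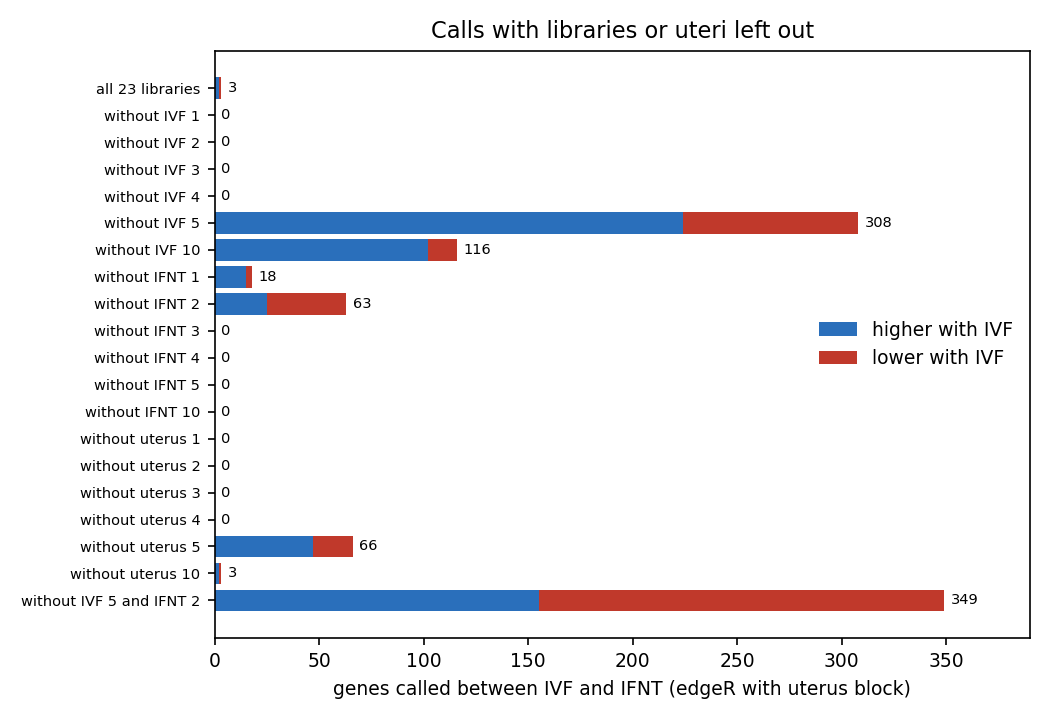
Genes called between IVF and IFNT by edgeR with the uterus block, higher (blue) and lower (red) with IVF, when each library or uterus is left out. The count is 0 in 12 of the 18 single omissions, 308 without IVF 5 and 349 without IVF 5 and IFNT 2.

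To see whether the small differences recur, the 100 genes with the smallest p in each direction were chosen without a uterus and read in it. Genes higher with IVF elsewhere differed by 0.29, 0.22, 0.62, 0.68, -0.27 and 0.05 on the log2 scale in uteri 1, 2, 3, 4, 5 and 10. The sign was the same in 5 of 6 uteri, with 98 of the 100 genes higher in uterus 3 and in uterus 4 and 57 in uterus 10. In uterus 2 the value was 0.07 with 50 genes and 0.08 with 200, where the median of all genes was 0.07. The conceptuses of uteri 3 and 4 share a title code, so each of these uteri was read with genes chosen partly on the other. Whether a shared source explains their high values was not tested. Genes lower with IVF elsewhere differed by -0.22, 0.27, -0.49, -0.40, 0.08 and -0.16 in the same order. That sign was the same in 4 of 6 uteri, with uteri 2 and 5 as the exceptions. When the genes were instead the 55 called lower without uteri 2 and 5, they differed by 0.22 in uterus 2 and -0.11 in uterus 5, where 31 of the 55 were lower. The 55 called higher differed by 0.31 in uterus 2 and -0.32 in uterus 5. The means of the sets of 100 genes were 0.26 ± 0.36 and -0.16 ± 0.29 (SD, n = 6), both smaller than the spread between uteri. Without uteri 2 and 5 they were 0.41 ± 0.29 and -0.32 ± 0.15 (SD, n = 4). That omission was chosen after seeing the data and removes every value of the opposite sign. The sign and spread of the means without these uteri are therefore no sign that the differences recur.

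**Figure D4:**
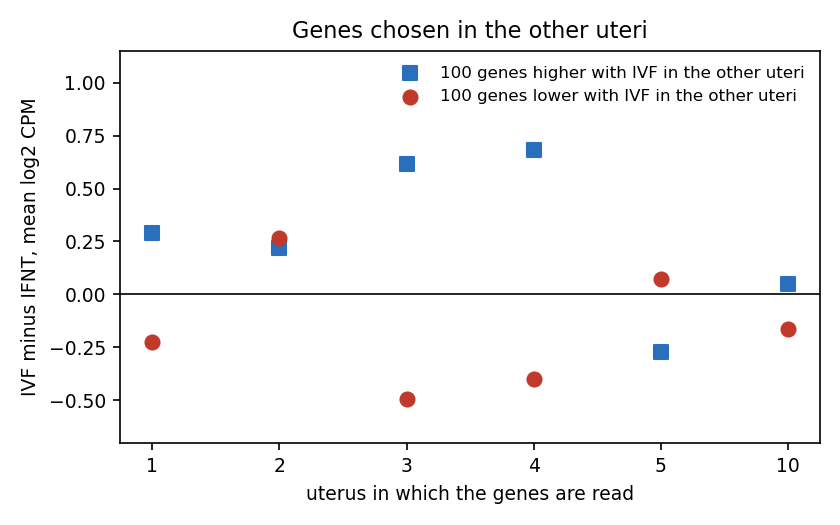
IVF minus IFNT (mean log2 CPM) in each uterus, for 100 genes higher (squares) and 100 genes lower (circles) with IVF that were chosen in the other uteri. The 2 sets lie on their own sides of 0 in uteri 1, 3, 4 and 10, both lie above 0 in uterus 2, and both are on the wrong side in uterus 5.

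The pair differences as a whole were alike among some uteri and opposed among others. Across 12406 genes with a mean log2 CPM of at least 1, the IVF minus IFNT differences correlated at r = 0.48 between uteri 3 and 4, 0.35 between 1 and 4, 0.34 between 1 and 5, 0.30 between 3 and 10 and 0.28 between 1 and 3. Uterus 2 correlated with uterus 1 at -0.50 and with uterus 5 at -0.48, and uterus 5 with uterus 10 at -0.40. IVF conceptuses with a common code thus belong both to the most alike pair of uteri, 3 and 4, and to the most opposed, 1 and 2. The pairs share no library, but genes are not independent replicates. Differences of at least 2-fold within a pair were fewest in uterus 3, with 227 genes higher and 128 lower, and most frequent in uterus 2, with 518 higher and 819 lower. The SD of the log2 differences was 0.43 in uterus 3 and 0.73 in uterus 2.

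The largest differences varied in size between uteri. Among genes with a mean log2 CPM of at least 1, 28 had a fitted IVF level at least 2-fold above IFNT and 16 at least 2-fold below. None of these 44 was called by edgeR, although 26 of the 28 and 7 of the 16 had an unadjusted p under 0.05 and DESeq2 called 14 and 3. Without IVF 5 and IFNT 2 edgeR called 14 of the 28 and 2 of the 16. The 28 genes together held 10670 CPM in IVF 3 and 8058 CPM in IVF 4, where the IFNT explants held 1736 and 1342 CPM. They held 4682 against 2082 CPM in uterus 1, 2879 against 1328 CPM in uterus 2, 1957 against 1972 CPM in uterus 5, and 3353 against 2441 CPM in uterus 10. The excess was several-fold in uteri 3 and 4, whose conceptuses share a title code, and smaller in uteri 1, 2 and 10. In uterus 5 the levels were nearly equal.

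Control explants held 1857 to 3143 CPM of these 28 genes, and the AI explants of uteri 1 to 4 held 5964, 2702, 4918 and 2810 CPM in turn. These sums are carried by abundant members: the median Control level was 14.1 CPM, and 10 of the 28 genes were above 50 CPM in Control. In 22 of the 28 the widest pair difference was that of uterus 3 or 4, and without these uteri the fitted difference stayed at 2-fold or more in 9. The median IFNT minus Control difference of the 28 genes was below 0 in 6 of 6 uteri, from -0.95 to -0.11 on the log2 scale. The median IVF minus Control difference was 1.62 and 1.87 in uteri 3 and 4 and between -0.31 and 0.72 in the others. The 16 lower genes were less uniform, with median differences of -0.99, -0.71, -1.17, -2.32, 0.58 and -2.61 in uteri 1, 2, 3, 4, 5 and 10. Of the 16, 6 were at least 4-fold lower with IVF in uterus 2 and at least 4-fold higher in uterus 5, the pairs that hold IFNT 2 and IVF 5. Against Control, IFNT raised 4 of the 16 and lowered none, and it lowered 2 of the 28 and raised none, where edgeR called 4.62% of all genes higher and 1.12% lower. The genes were chosen on these explants, so these values are descriptions.

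**Figure D5:**
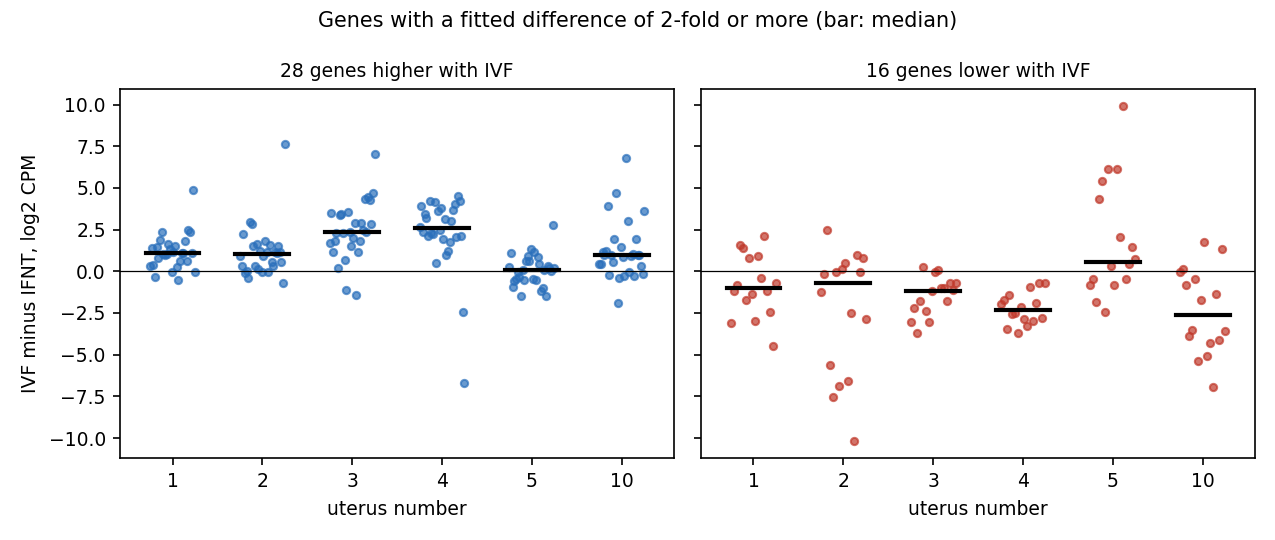
IVF minus IFNT (log2 CPM) in each uterus for the 28 genes fitted at least 2-fold higher and the 16 at least 2-fold lower with IVF; points are genes and bars medians. The medians of the higher genes are above 2 in uteri 3 and 4 and near 0 in uterus 5.

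Beside the levels in medium, most differences between IVF and IFNT were modest departures to both sides. The 242 genes that DESeq2 called higher with IVF differed from IFNT by a median log2 value of 0.48. Their median was 0.32 for IVF against Control and -0.17 for IFNT against Control, where all 15227 genes had medians of 0.02 and -0.01. Against Control, edgeR called 58 of them higher with IVF and 17 lower with IFNT, and 167 in neither comparison. Of all 15227 genes, 13836 were called in neither, a larger share. The 124 genes called lower had medians of -0.43 against IFNT, -0.27 for IVF against Control and 0.14 for IFNT against Control. Of these, 37 were called lower and 11 higher with IVF against Control, 28 were called higher and 1 lower with IFNT, and 59 were called in neither comparison. In all 6 pairs 160 of the 242 were higher and 75 of the 124 were lower, where 2.98% and 2% of all genes were. The comparisons against medium share the Control explants, and these genes were chosen on the same IVF and IFNT libraries. Against Control, edgeR called 875 genes with IFNT (5.75%), 704 higher (4.62%) and 171 lower (1.12%), and 1134 with IVF (7.45%), 794 higher (5.21%) and 340 lower (2.23%). Without uterus 1 and without uterus 3 these counts were 578 and 543 for IFNT and 633 and 675 for IVF.

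Of the 704 genes called higher with IFNT than Control in the fit of all libraries, 536 were also called higher with IVF, where 5.21% of all genes were; both calls rest on the same Control explants. In the direct comparison 145 of the 704 (20.6%) were lower with IVF at an unadjusted p under 0.05, where 5.53% of all genes were, and 15 (2.13%) were higher, where 8.31% of all genes were. After adjustment none of the 704 was called by edgeR. Of the 171 genes that IFNT lowered, 46 (26.9%) were higher with IVF at that level and 1 was called, ENSBTAG00000001607. Both sets were chosen with the IFNT libraries of the comparison, which by itself favours a return towards Control in the IVF libraries.

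An AI conceptus differed from IFNT in more genes than an IVF conceptus did. The same model called 1058 genes between AI and IFNT (6.95%), 747 higher (4.91%) and 311 lower (2.04%), from 4 AI explants, and DESeq2 called 1724 (11.5%). Median log2 differences of the 747 from the same IFNT libraries were 0.70 with AI and 0.33 with IVF, and those of the 311 were -0.53 and -0.28. The genes were chosen on the AI libraries. The median SE over all genes was 0.16 for IVF and 0.18 for AI. The median size of the log2 fold change over all genes was 0.15 for IVF and 0.22 for AI. In uteri 1 to 4 alone edgeR called 13 genes for IVF and 895 for AI. The test of the difference itself, AI against IVF, called 0 genes with edgeR (0%) and with limma-voom, with 1254 at an unadjusted p under 0.05 in edgeR, and 85 genes (0.618%) with DESeq2. It called 12 genes without IVF 2 and 1 without uterus 2. The AI against IFNT count also moved with single uteri: it was 15 when uterus 3 was omitted, 25 for uterus 4, 361 for uterus 1 and 668 for uterus 2. Omission of IFNT 3 gave 401 and that of IFNT 4 gave 523.

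IVF explants were then compared between conceptuses, with a term for sex or for length added to the model of all libraries (12 residual degrees of freedom). Such a term reads an IVF explant against all other explants of its uterus, not against IFNT alone. No gene differed between male (uteri 1, 3, 5 and 10) and female (uteri 2 and 4) IVF conceptuses in edgeR, with 1269 genes at an unadjusted p under 0.05 and a smallest adjusted p of 0.599. No gene followed the log2 of conceptus length either, with 978 genes at that level and a smallest adjusted p of 0.599. With 2 female conceptuses and 6 lengths these tests are coarse. Without IVF 5 and IFNT 2 (10 residual degrees of freedom) edgeR called 0 genes for sex and 0 for length. The smallest adjusted p was 0.883 and 0.478 in turn. In that fit IVF 2 is read against Control 2 and AI 2 only. DESeq2 was not run for the sex and length terms.

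Few genes were read with a conceptus and hardly at all without one. Of genes without a read in all Control and IFNT libraries, 9 had a read in at least 3 of the paired IVF libraries, and no count among them was above 9. In the opposite direction, 5 genes without a read in Control and IVF were seen in at least 3 IFNT libraries, with counts of at most 4. A further 3 genes had at most 3 reads in each Control and IFNT library and 60, 69 and 256 reads in IVF, all of them in IVF 3 and none in AI. Reads shared with near-identical copies of a gene make such counts less certain. How much RNA of the conceptus was left on the explants was not tested, since its marker genes could not be named.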

How the data were processed

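Stranded mRNA libraries (TruSeq) were made from total RNA, per the labels' protocols. HISAT2, StringTie and edgeR, and the build UMD3.1, appear without roles or versions per the submitters' processing notes. Not given in the sources used here are the counting tool, annotation, strand setting and filters. The table deposited by the authors holds raw read counts for 18897 Ensembl genes, 0 of which matched the symbol table used here (ARS-UCD2.0). The named gene rule (called genes and smallest p in each direction) was therefore limited to 2 identifiers per direction, and the fixed gene lists and cell type markers could not be applied. The comparison, lists and tests were chosen with earlier results of these data known.

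The test used edgeR 4.0.16 under R 4.3.3 (filterByExpr, TMM, quasi-likelihood F test) in 1 model of 4 groups with the uterus number as additive block, on all 23 libraries, with 15227 genes and 13 residual degrees of freedom. Deviations from group means correlated in all 30 same-number pairs (r = 0.18 to 0.77), against r = -0.62 to 0.57 in 223 pairs of different numbers. The block was chosen from the numbers in the titles. A gene was called at an adjusted p (Benjamini-Hochberg) under 0.05. Log2 CPM used a prior count of 2, and the SE is the log2 fold change divided by the root of F. No label says that the explants of a uterus came from 1 animal, so p-values measure the spread between these explants. DESeq2 1.42.0, limma-voom 3.58.1, no block, RLE factors, no filter and omissions were alternatives. No 2 of the 12 libraries were duplicates (chi-square per degree of freedom of at least 69.97). The model was tested on simulated counts.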

Additional observations from a re-analysis of the deposited data

Results flagged for a closer look

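In each of 43 sets of 4 to 6 values the highest and lowest value were checked for distance from the rest by Dixon's criterion, which chance alone meets in about 5% of sets. In 8 sets a value stood apart, 6 of them the same IFNT-raised genes in uterus 2, where IVF exceeded IFNT: 0.50 on the log2 scale over all of them, 0.30, 0.63 and 0.84 for genes raised less than 2-fold, 2- to 8-fold and 8-fold or more, and 0.46 and 0.49 for genes at 1 to 16 CPM and at 16 CPM or more in Control. These sets overlap in genes and are not separate observations. The IFNT explant of uterus 2 had the lowest response of the 6, 0.95 over Control. ENSBTAG00000001607 differed by 1.12 between IVF and IFNT in uterus 10, where the other 5 uteri lay between 0.47 and 0.69. The 28 genes fitted at least 2-fold higher with IVF held 3143 CPM in the Control explant of uterus 10, above the other Control explants.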

How the results depend on the processing

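The count of genes called between IVF and IFNT, 3 with the uterus as a replicate block, was 0 with no replicate block, 0 with no filter on low counts (2089 at an unadjusted p under 0.05) and 0 in the 12 paired libraries alone (1230, with 5 residual degrees of freedom). It was 13 in uteri 1 to 4, 366 in DESeq2 and 2 with RLE size factors, 1 in each direction, and single omissions gave 0 to 308. Chosen after seeing the data, the fits without IVF 5 and IFNT 2 gave 349, or 1175 in DESeq2, and that without uteri 2 and 5 gave 110. With no replicate block the counts were 489 for IFNT and 513 for IVF against Control, and 0 for AI against IFNT (1495 at an unadjusted p under 0.05). Against Control, single omissions gave 543 to 940 genes for IFNT and 633 to 1401 for IVF, and IVF gave 720 without uteri 2 and 5 and 2229 in DESeq2 without IVF 5 and IFNT 2. For AI against IFNT the count was 1724 in DESeq2, 2186 in DESeq2 without IVF 5 and IFNT 2, and 15 to 1447 in single omissions. AI against IVF gave 85 in DESeq2, 56 in DESeq2 without IVF 5 and IFNT 2, 2 without uteri 2 and 5, and 0 to 12 in single omissions. The cause of these shifts was not tested. Over 28 alternatives the 3 called genes and ENSBTAG00000015808 kept their direction and were called in 12 (ENSBTAG00000001607), 9 (ENSBTAG00000019133), 11 (ENSBTAG00000000210) and 6. These genes were chosen by their p on the same libraries and have the same sign in every pair. Their unchanged direction is therefore no further support. The mean IVF minus IFNT difference of IFNT-raised genes was -0.26 to -0.09 in single omissions, and -0.18 for genes raised at least 2-fold. A single omission only averages the remaining readings again, and 5 of the 6 readings are negative. No single omission could therefore turn the mean positive, and its unchanged sign is no sign of stability.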
